A study of Mus musculus with 12 samples.

Results

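The genes described here are 10 inflammatory genes: the cytokines Il1a, Il1b and Tnf, the IL-1 receptor antagonist Il1rn, the chemokines Cxcl2, Ccl3 and Ccl4, the NF-kB inhibitors Nfkbia and Tnfaip3, and the prostaglandin enzyme Ptgs2. They were chosen by name, with earlier results of these data known. All 10 were found among the 21853 genes of the deposited expression table. RNA was sequenced from whole bone marrow cells of B6 mice in 12 libraries, 3 in each of 4 groups. All marrow was collected on day 14. Control mice were not irradiated. TBI mice received 5 Gy of γ-rays to the total body at 0.66 Gy/min and were then given 100 μL of olive oil, the vehicle, by gavage. TBI+DEIX mice had the same irradiation and a daily oral dose of 25 mg/kg DEIX over the 14 days. DEIX mice had that dose without irradiation. DEIX is the deinoxanthin of the series title, a carotenoid pigment. The vehicle is stated for the TBI group and for no other, so irradiation and gavage of oil cannot be told apart in a comparison of TBI with control. The age and sex of the mice are not given in the sources used here, nor is whether each library is a separate mouse, so p-values measure the spread between these libraries, which may be technical.

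NF-kB is a family of transcription factors that myeloid cells hold inactive in the cytoplasm by binding to inhibitors of the IκB family, among them the product of Nfkbia. Signals through the receptors of IL-1 and TNF lead to the destruction of IκB, after which NF-kB enters the nucleus and raises the transcription of cytokine and chemokine genes. Nfkbia and Tnfaip3 are themselves NF-kB targets whose products switch the pathway off again, so their transcripts are commonly read as a trace of its activity. Bone marrow stores maturing neutrophils and monocytes, which are main sources of these messages.

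Levels are given as FPKM, the fragment count of a gene relative to its transcript length and to the size of the library. Of the 10 genes, 7 reached 1 FPKM in at least 3 libraries and were tested with the 10994 genes that did so. Il1a, Cxcl2 and Ptgs2 did not, and their tests come from a fit with no such filter. Changes are differences of log2(FPKM + 1), which compresses the changes of weakly expressed genes. A call means an adjusted p under 0.05 in limma, with the Benjamini-Hochberg adjustment over all genes tested. The estimated depth, in units of 1000000 fragments, ran from 21.7 in TBI+DEIX replicate 1 to 53.3 in TBI replicate 2. Replicate 1 of TBI+DEIX stood apart. It held the highest or the lowest value of the 12 libraries for 52.8% of the tested genes, against 3.99% to 26.9% for each of the other 11, and it lay outside the range of those 11 for 6 of the 10 inflammatory genes. Its summed FPKM of 10 monocyte markers was 1081, the lowest of any library, where the other libraries held 1574 to 3268, and its sum of 9 B lineage markers was 88.3 against 161 to 904. Results that rest on that library are given with and without it.

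After irradiation the marrow held less Ccl4 and Ptgs2 than control marrow, and both differences passed the test, although Ccl4 lost its call when any 1 of 5 of the 6 libraries was left out. In bulk marrow, fewer cells of a type and less RNA per cell cannot be told apart. Il1b was 2.54-fold lower and did not overlap with control, but it passed the test only where the spread was taken from fewer or reweighted libraries. Tnf was highest in the irradiated mice given DEIX, 1.88-fold over control, and this rise passed the test in every alternative run. Ptgs2 was lower in every group than in control, by 3.75-fold to 6.72-fold. Between TBI+DEIX and TBI none of the 7 tested genes passed with all libraries weighted equally, where 8.1% of all tested genes did. Il1b did once TBI+DEIX replicate 1 was left out, as did 25.8% of all tested genes. With weights per library Il1b and Tnf did (adjusted p = 0.0156 and 0.0234 in limma), as did 40.8% of all tested genes.

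For TBI against control, 1 of the 7 tested genes was called, Ccl4, where 3.99% of all tested genes were. By ranges alone, 5 of the 7 were lower after TBI without overlap (Il1b, Il1rn, Ccl3, Ccl4 and Tnfaip3) and 1 was higher (Tnf), against 16.3% and 22% of all tested genes. With the control and TBI libraries alone, 5 of the 7 were called, all but Ccl3 and Nfkbia, and 12.9% of all genes. From TBI to TBI+DEIX none of the 7 was called, where 8.1% of all genes were, and 1 of the 7 was called at an unadjusted p under 0.05, as were 27.2% of all genes. Tnf was the gene that was higher without overlap there, as were 14.5% of all genes. Without TBI+DEIX replicate 1 the count was 1, Il1b, and the background 25.8%. With DEIX alone none was called (7.24% of all genes), while 3 had an unadjusted p under 0.05 (24.7% of all genes). Here 3 of the 7 were lower than control without overlap (Il1b, Ccl4 and Tnfaip3; 17.2% of all genes) and 1 was higher (Tnf; 23.4%). With those groups alone 2 were called, Il1b and Ccl4 (18.7% of all genes). From control to TBI+DEIX 2 of the 7 were called, Tnf higher and Ccl4 lower, a share close to the 30% of all genes. Tnf was higher without overlap there, as were 23.9% of all genes, and Ccl3 lower, as were 21.1%. With those groups alone, or without TBI+DEIX replicate 1, Tnf kept its call and Ccl4 did not, against 19.8% and 38.5% of all genes. The interaction, which is the DEIX difference in irradiated mice minus that in unirradiated mice, was called for none of the 7 and for 0.2% of all genes, with unadjusted p under 0.05 in limma for Ccl4 (0.0191) and Tnfaip3 (0.036). Without TBI+DEIX replicate 1 it was called for Il1b, and for 3.01% of all genes.

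**Figure D1:**
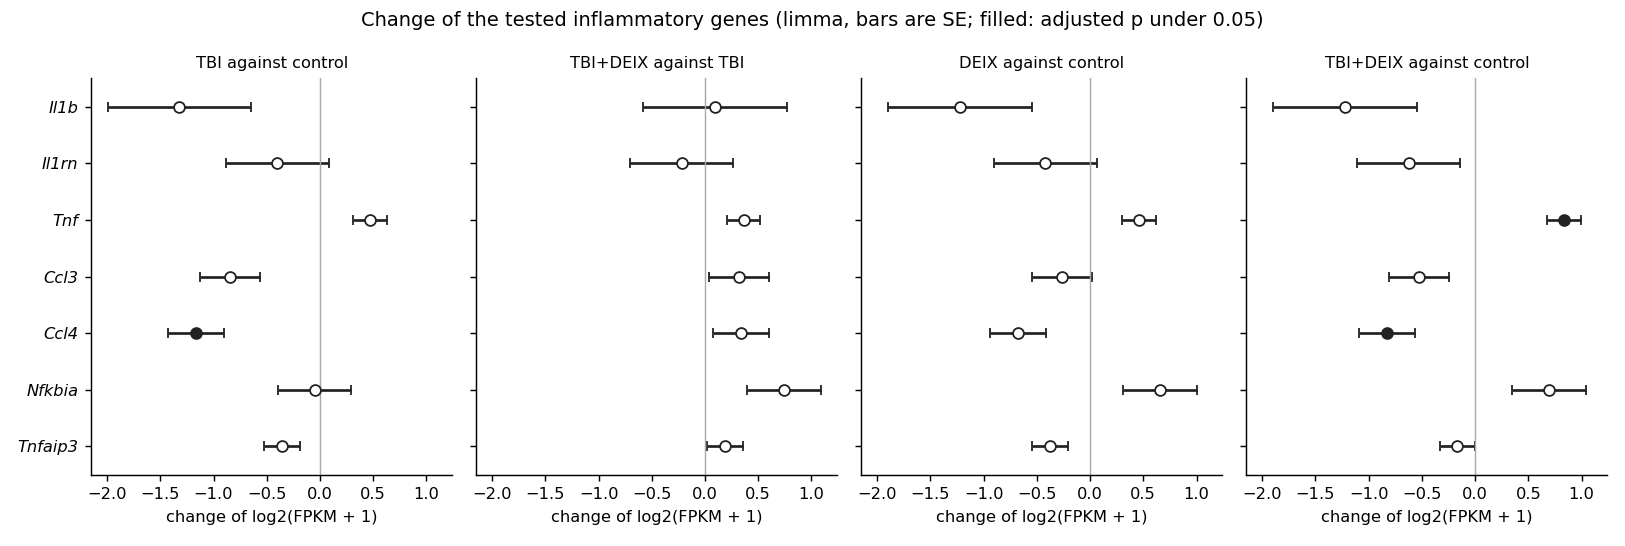
Change of the 7 tested genes in 4 comparisons, as the difference of log2(FPKM + 1) between group means with bars of 1 SE from limma, and filled points for an adjusted p under 0.05. Ccl4 is filled for TBI and for TBI+DEIX against control, and Tnf for TBI+DEIX against control. The bars of Il1b are the widest, with an SE of 0.68.

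**Figure D2:**
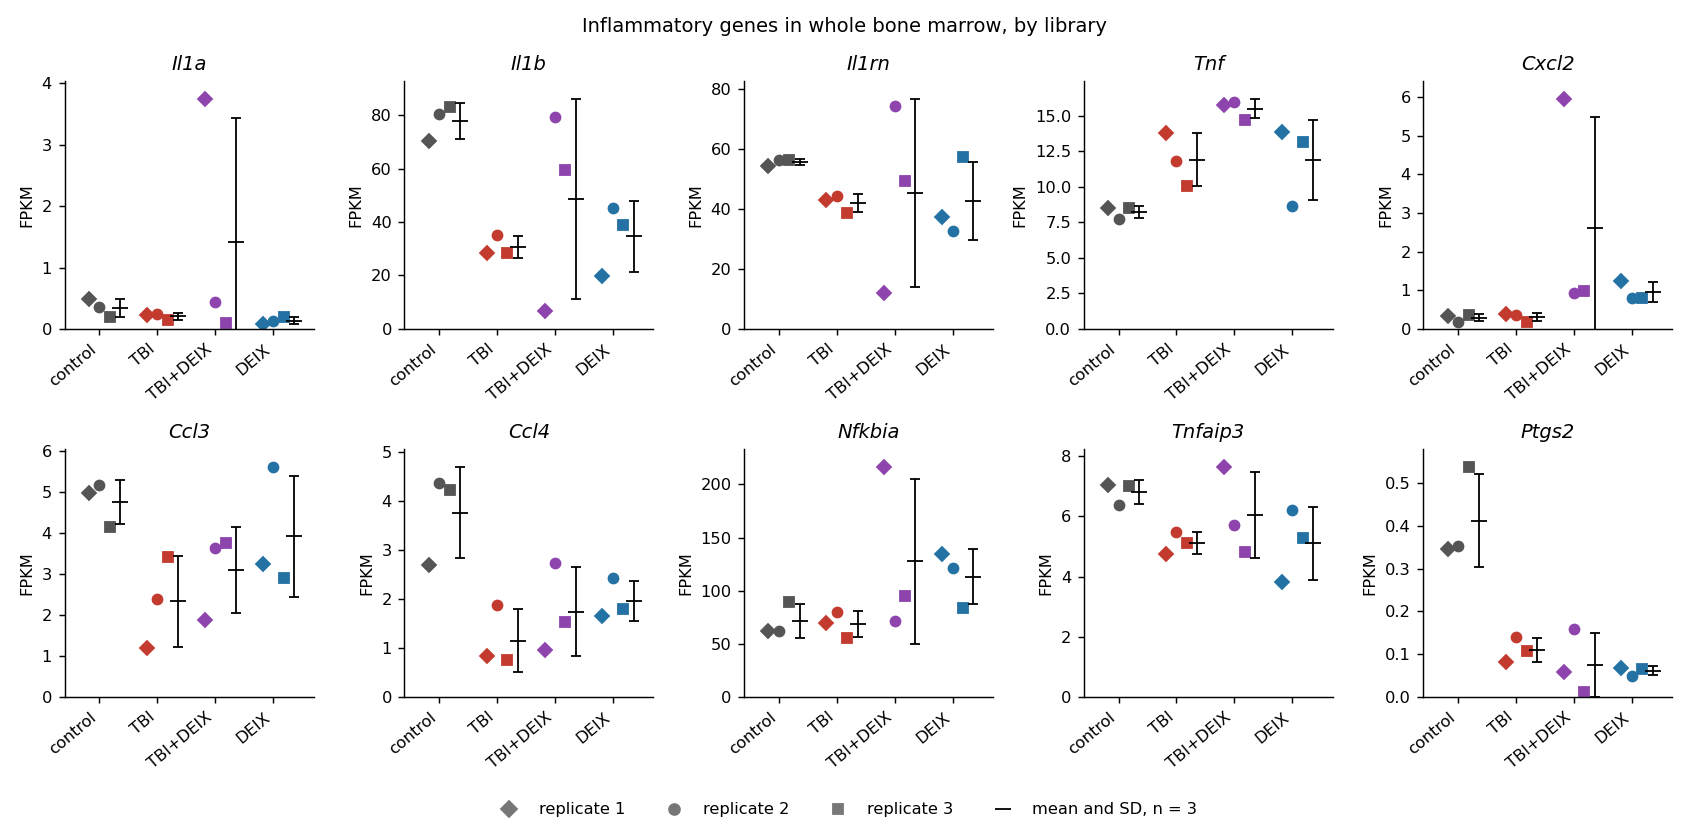
FPKM of the 10 inflammatory genes in each of the 12 libraries, with the y axis in FPKM on a linear scale that differs between panels. Markers show replicates, and the horizontal tick and bar show the mean and SD of 3 libraries, with bars that would reach below 0 stopped at the axis. TBI+DEIX replicate 1 (purple diamond) sits far above the other libraries for Il1a, Cxcl2 and Nfkbia and below them for Il1b and Il1rn.

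Il1b encodes interleukin-1β, the main secreted IL-1 of myeloid cells. Its level was 70.2, 80.4 and 82.9 FPKM in the control libraries and 28.4, 35.3 and 28.3 FPKM after TBI. All TBI libraries lay below all control libraries, and the means were 77.9 ± 6.71 and 30.7 ± 3.98 FPKM (SD, n = 3). The DEIX libraries held 19.6, 45.4 and 38.8 FPKM and were also below control without overlap. The TBI+DEIX libraries held 6.87, 79.2 and 59.5 FPKM. Replicates 2 and 3 of TBI+DEIX were thus above all TBI and all DEIX libraries, while replicate 1 was the lowest library of the 12.

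In the fit over all libraries, Il1b changed by -1.32 (SE 0.68) from control to TBI and the difference did not pass the test (limma adjusted p = 0.335). The SD of log2(FPKM + 1) that this fit shares between groups was 1.83 in TBI+DEIX, against 0.13 in control and 0.18 in TBI. With the control and TBI libraries alone the change passed, at an adjusted p of 5e-04. Likewise the change from control to DEIX was -1.22 (adjusted p = 0.291), and 0.0187 with those groups alone. Between TBI and TBI+DEIX the difference was 0.10 (SE 0.68, adjusted p = 0.943). Without TBI+DEIX replicate 1 it was 1.15 (SE 0.28, adjusted p = 0.0177), and the interaction was 2.37 (SE 0.38, adjusted p = 0.00649). All libraries gave an interaction of 1.32 (adjusted p = 0.898). The summed FPKM of the monocyte markers, all 10 detected and none at 0, was 1574 to 2487 in TBI and 2318 to 2352 in control, and that of 10 maturing neutrophil markers was 25423 to 31542 and 21770 to 30381. Both sums overlapped between TBI and control, while the summed FPKM of 10 macrophage markers, 226 to 265 in control and 134 to 195 in TBI, and that of 7 dendritic cell markers, 127 to 149 and 43.6 to 55.3, were lower in TBI without overlap, as Il1b was. The B lineage sum, 741 to 904 and 161 to 508, and the T and NK cell sum, 163 to 197 and 97.2 to 140, were also lower in that way. So were the sums of basophil and mast cell markers, 397 to 456 and 106 to 272, and of megakaryocyte and platelet markers, 108 to 166 and 23.5 to 44.6. In TBI+DEIX replicates 2 and 3, where Il1b was above all TBI libraries, the macrophage sum was 299 and 252 and the neutrophil sum 52537 and 50361, also above all TBI libraries, while the dendritic cell sum, 50.5 and 46.7, lay within the TBI range. The B lineage sum, 547 and 558, was above all TBI libraries too, and the megakaryocyte and platelet sum, 36.1 and 39.3, was within their range. The T and NK cell sum, 132 and 145, and the basophil and mast cell sum, 224 and 345, were above it in replicate 3 only. The part of these sums in the results was not tested.

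Il1rn encodes the IL-1 receptor antagonist, which occupies the receptor without signalling. It stood at 54.4, 56.2 and 56.1 FPKM in control, 42.9, 44.2 and 38.6 FPKM after TBI, 37.4, 32.8 and 57.3 FPKM with DEIX, and 12.1, 74.3 and 49.2 FPKM in TBI+DEIX. All TBI libraries were below control, DEIX overlapped with control, and TBI+DEIX spanned the whole range. The change from control to TBI was -0.40 (SE 0.48, adjusted p = 0.716), and it passed with those groups alone (adjusted p = 0.0184). From TBI to TBI+DEIX it was -0.22 (adjusted p = 0.806), and without TBI+DEIX replicate 1 the sign turned, to 0.52 (adjusted p = 0.0938).

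Il1a encodes interleukin-1α, the IL-1 that is active as a precursor. It was close to the limit of detection, with 0.0858 to 0.488 FPKM in 11 libraries and 3.74 FPKM in TBI+DEIX replicate 1. That library held an estimated 160 fragments of Il1a, and the others 4.92 to 47.6. That 1 library set the group mean, and no comparison of Il1a passed the test.

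The balance between the antagonist and the cytokine was read as the ratio of the FPKM of Il1rn to that of Il1b within each library, which does not depend on the scaling of the library. The ratio was 0.774, 0.698 and 0.677 in control and 1.51, 1.26 and 1.36 after TBI, so the antagonist exceeded Il1b in each TBI library and in no control library. In TBI+DEIX it was 1.77, 0.938 and 0.827, and with DEIX 1.91, 0.722 and 1.48. Every TBI and every TBI+DEIX library lay above control, and in both cases the exact two-sided permutation test gave p = 0.1, the smallest that 3 libraries against 3 allow (adjusted p = 0.267 over 16 ratio comparisons). Il1r2, the decoy receptor that captures IL-1 without signalling, was set against Il1b in the same way. That ratio was 0.448 ± 0.0394 in control, 1.26 ± 0.382 in TBI and 4.21 ± 2.81 with DEIX (SD, n = 3), and 50.8, 1.49 and 1.98 in the TBI+DEIX libraries. Each group with irradiation or DEIX lay above control without overlap (exact p = 0.1 each). Il1r2 is itself one of the maturing neutrophil markers, and its own rise is given with the pathway genes.

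**Figure D3:**
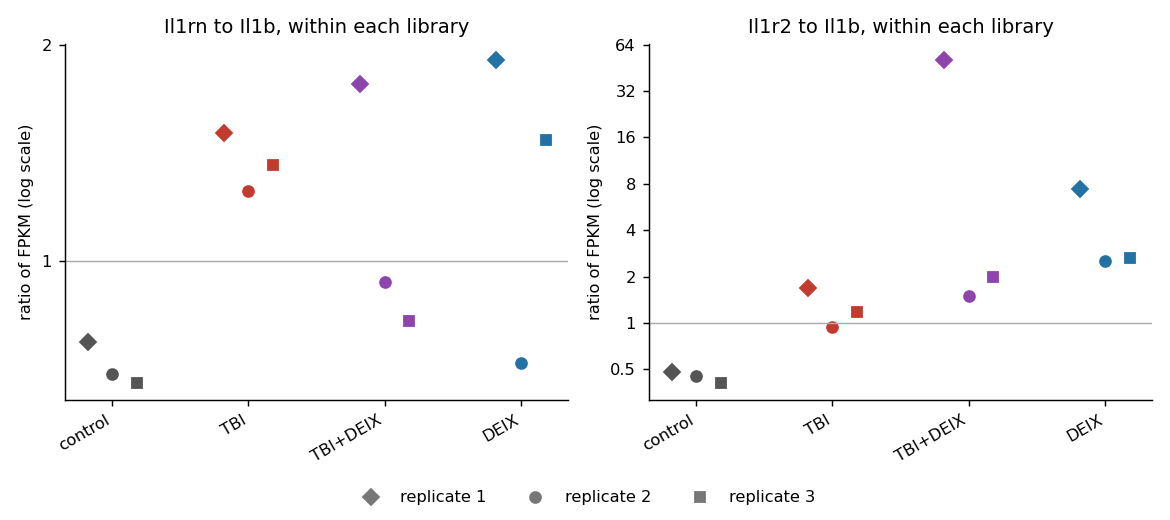
Ratio of the FPKM of Il1rn (left) and of Il1r2 (right) to that of Il1b within each library, on log axes, for the 4 groups. In all control libraries both ratios are below 1, and Il1rn exceeds Il1b in all 3 TBI libraries. The ratio of Il1r2 to Il1b reaches 50.8 in TBI+DEIX replicate 1.

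Tnf encodes tumour necrosis factor, which acts through receptors on nearly all cells. Control libraries held 8.50, 7.75 and 8.49 FPKM, TBI libraries 13.8, 11.8 and 10.1 FPKM, DEIX libraries 13.8, 8.67 and 13.2 FPKM, and TBI+DEIX libraries 15.8, 16.0 and 14.7 FPKM. All TBI, DEIX and TBI+DEIX libraries were above all control libraries, and TBI+DEIX was above all others, while TBI and DEIX overlapped. In contrast to Il1b, replicate 1 of TBI+DEIX lay within its group. From control to TBI+DEIX the mean rose from 8.24 ± 0.427 to 15.5 ± 0.666 FPKM (SD, n = 3), a change of 0.84 (SE 0.16, adjusted p = 0.00325). The rise kept its call in all 15 alternative settings run, with values of 0.79 to 0.90, and was 0.82 (adjusted p = 0.00447) without TBI+DEIX replicate 1. The summed FPKM of 10 immediate early genes, which handling of cells can raise, was 393 to 427 in TBI+DEIX and 263 to 359 in control, also without overlap, and its part in the rise of Tnf was not tested. From control to TBI the change was 0.47 (SE 0.16, adjusted p = 0.141), and it passed with those groups alone (adjusted p = 0.0349). From control to DEIX it was 0.46 (adjusted p = 0.106), and from TBI to TBI+DEIX 0.36 (adjusted p = 0.172). The interaction was -0.09 (SE 0.22, adjusted p = 0.999), and its sign changed when TBI or DEIX replicate 1 was left out.

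Among the chemokines, Cxcl2 encodes a ligand of Cxcr2 that draws neutrophils. It was low in control, at 0.338, 0.189 and 0.347 FPKM, and in TBI, at 0.381, 0.349 and 0.176 FPKM. It stood at 1.25, 0.793 and 0.801 FPKM with DEIX and at 5.94, 0.935 and 0.979 FPKM in TBI+DEIX. Each library of a group given DEIX was above each library of a group that was not, so that the 6 DEIX-treated and the 6 untreated libraries separated completely. Among the 10994 tested genes, which leave out Cxcl2, 23.4% were higher without overlap from control to DEIX and 14.5% from TBI to TBI+DEIX. The share of genes that separated over all 12 libraries was not counted. In estimated fragments this was 47.8 to 239 against 12.9 to 34.6. With no filter, the difference from TBI to TBI+DEIX was 1.20 (adjusted p = 0.124) and that from control to DEIX was 0.59 (adjusted p = 0.482). Without TBI+DEIX replicate 1, whose value was the highest, the first was smaller, 0.59, and passed (adjusted p = 0.0173). With the control and DEIX libraries alone the second passed (adjusted p = 0.0359). These alternatives for Cxcl2 were chosen after seeing the data. From control to TBI+DEIX the change was 1.21 (adjusted p = 0.061), and 0.60 (adjusted p = 0.00529) without TBI+DEIX replicate 1. The same 3 alternatives run with the filter called 25.8%, 18.7% and 38.5% of the tested genes, in the order given. The interaction was 0.61 (adjusted p = 0.936), or 0.00 without TBI+DEIX replicate 1, so a different DEIX response in irradiated and unirradiated mice was not detected for Cxcl2.

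Ccl3 and Ccl4 encode MIP-1α and MIP-1β, closely related chemokines that attract leukocytes. Their genes lie close together on mouse chromosome 11 (mm10), Ccl3 at 83647844 to 83649355 on the minus strand and Ccl4 at 83662584 to 83664683 on the plus strand. Ccl4 stood at 2.70, 4.38 and 4.22 FPKM in control and at 0.826, 1.88 and 0.743 FPKM after TBI. All TBI libraries were below all control libraries, with means of 3.76 ± 0.928 and 1.15 ± 0.635 FPKM (SD, n = 3). The fall of 3.27-fold was -1.17 on the log2 scale (SE 0.26, adjusted p = 0.0323). It lost its call when any 1 of 5 libraries was left out (all but TBI replicate 2), with adjusted p from 0.0518 to 0.138 and changes from -1.34 to -1.03.

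The DEIX libraries held 1.66, 2.42 and 1.79 FPKM of Ccl4 and were below control without overlap (-0.68, adjusted p = 0.139; 0.0291 with those groups alone). The TBI+DEIX libraries held 0.952, 2.74 and 1.52 FPKM, which overlapped with control by 1 library. The difference of TBI+DEIX from control was -0.83 (SE 0.26, adjusted p = 0.0341), and -0.61 (adjusted p = 0.0808) without TBI+DEIX replicate 1. That call was lost in 7 of 14 alternatives, which were no filter, quantile normalization, the compared groups alone, and leaving out control replicate 2 or 3 or TBI+DEIX replicate 1 or 3, with adjusted p up to 0.116. From TBI to TBI+DEIX the change was 0.34 (SE 0.26, adjusted p = 0.444).

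Ccl3 followed the same order at a higher level. It stood at 4.97, 5.17 and 4.16 FPKM in control, 1.18, 2.39 and 3.42 FPKM after TBI, 1.89, 3.64 and 3.76 FPKM in TBI+DEIX, and 3.24, 5.61 and 2.90 FPKM with DEIX. TBI and TBI+DEIX were below control without overlap, and DEIX was not. The change was -0.85 from control to TBI (SE 0.28, adjusted p = 0.139; 0.0512 with those groups alone) and -0.53 from control to TBI+DEIX (adjusted p = 0.184). Basophil and mast cell markers moved in the same direction: the summed FPKM of 8 such genes, 7 of which reached 1 FPKM in 3 libraries and none of which was at 0 throughout, was 397 to 456 in control, 106 to 272 in TBI, 116 to 345 in TBI+DEIX and 257 to 392 with DEIX. The sum of 9 T and NK cell markers was 163 to 197 in control, 97.2 to 140 in TBI and 56.3 to 145 in TBI+DEIX, and that of the macrophage markers, given with Il1b, was also lower in TBI without overlap. The part of these sums in the differences of Ccl3 and Ccl4 was not tested.

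Nfkbia, which encodes IκBα, had the highest mean of the 10 genes over the 12 libraries, 95.1 FPKM. It stood at 62.5, 61.7 and 89.4 FPKM in control and 69.4, 80.1 and 55.6 FPKM after TBI, which overlapped. With DEIX it stood at 135, 121 and 83.9 FPKM, and in TBI+DEIX at 216, 71.3 and 95.4 FPKM. DEIX replicates 1 and 2 exceeded all control and TBI libraries, and replicate 3 did not. The change was -0.05 (SE 0.35, adjusted p = 0.954) from control to TBI, 0.66 (adjusted p = 0.272) from control to DEIX, and 0.74 (adjusted p = 0.197) from TBI to TBI+DEIX. The last was 0.28 (adjusted p = 0.388) without TBI+DEIX replicate 1. With the control and DEIX libraries alone, the change from control to DEIX had an adjusted p of 0.0608. From control to TBI+DEIX Nfkbia changed by 0.69 (limma adjusted p = 0.157). That was 0.23 (adjusted p = 0.467) without TBI+DEIX replicate 1, and 1.02 (adjusted p = 0.041) without replicate 2, where 28.6% of all genes were called.

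Tnfaip3 encodes A20, a ubiquitin-editing enzyme that stops signalling upstream of IκB. It stood at 7.06, 6.37 and 7.02 FPKM in control, 4.75, 5.47 and 5.11 FPKM after TBI, 3.81, 6.22 and 5.29 FPKM with DEIX, and 7.63, 5.70 and 4.82 FPKM in TBI+DEIX. TBI and DEIX were below control without overlap, while TBI+DEIX overlapped with both control and TBI. The changes against control were -0.36 for TBI (SE 0.17, adjusted p = 0.292; 0.0356 with those groups alone) and -0.38 for DEIX (adjusted p = 0.193). Nfkbia and Tnfaip3 therefore differed in direction in the DEIX libraries, 1.59-fold higher and 1.34-fold lower by group means, and neither change passed with all libraries weighted equally. Both passed with weights per library (adjusted p = 0.0106 and 0.0213 in limma), where 41% of all tested genes did.

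Promoter sequences are shown for the members whose window holds the κB motif, the 10-base site that NF-kB dimers bind, because Cxcl2 and Nfkbia had the closest profiles of any pair of the 10 genes over the 12 libraries, a rank that rested on TBI+DEIX replicate 1. RefSeq promoters on GRCm38.p6 were matched for 9 of the 10 genes, 12 promoters in all; Ccl4 is named only. The κB motif, searched on both strands from 250 bases before to 50 after each start, was found in 3 of the 12, those of Cxcl2, Nfkbia and Tnfaip3, and in 8.46% of 32851 mouse promoters of that length. The TATA box, searched only as the letters TATAAA on either strand, was in 6 of the 12, each of a different gene, and in 13.6% of all. These letters began 32, 31 and 29 bases before the start in Il1a, Il1b and Tnf, on the strand of the gene. In Tnfaip3 they began 225 bases before the start, and in Il1rn and Nfkbia they lay after the start on the other strand. The 250 bases before the start follow, 5′ to 3′ on the strand of the gene, with κB matches in capitals. They lie at chr5:90903649-90903898 (plus) for Cxcl2, chr12:55492648-55492897 (minus) for Nfkbia and chr10:19015411-19015660 (minus) for Tnfaip3.
Cxcl2: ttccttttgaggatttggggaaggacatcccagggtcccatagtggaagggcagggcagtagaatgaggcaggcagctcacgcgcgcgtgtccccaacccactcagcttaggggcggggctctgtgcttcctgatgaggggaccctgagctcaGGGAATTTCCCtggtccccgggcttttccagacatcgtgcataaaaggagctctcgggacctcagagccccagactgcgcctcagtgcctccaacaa
Nfkbia: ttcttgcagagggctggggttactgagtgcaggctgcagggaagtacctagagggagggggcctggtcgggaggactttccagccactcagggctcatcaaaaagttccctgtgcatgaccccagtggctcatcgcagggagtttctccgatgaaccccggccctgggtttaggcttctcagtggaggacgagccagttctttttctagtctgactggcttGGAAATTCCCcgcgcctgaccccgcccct
Tnfaip3: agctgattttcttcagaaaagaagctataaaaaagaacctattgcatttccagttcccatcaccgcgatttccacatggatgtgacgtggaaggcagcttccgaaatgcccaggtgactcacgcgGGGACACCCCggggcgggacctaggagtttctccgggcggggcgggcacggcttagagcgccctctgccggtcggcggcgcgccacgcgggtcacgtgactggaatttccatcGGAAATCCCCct
In Cxcl2 the capitals hold 2 matches, one on each strand, that overlap by all but 1 base, and in Tnfaip3 the first run matches on both strands. The match nearest the start ended 87 bases before it in Cxcl2, 20 in Nfkbia and 3 in Tnfaip3, where the other run ended 116 bases before the start. A match describes letters in this window and shows no binding.

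Over the 12 libraries the Pearson correlation of log2(FPKM + 1) was 0.887 between Cxcl2 and Nfkbia, and 0.766 over the 11 libraries without TBI+DEIX replicate 1. Over those 11, Il1b and Tnfaip3 had the highest value, 0.804, against 0.115 over 12. Tnfaip3, with the same motif, had correlations of 0.125 with Nfkbia and 0.220 with Cxcl2 over 12 libraries, and -0.372 and -0.527 over 11. Il1b and Il1rn had 0.884 over 12 and 0.715 over 11, Il1b and Ccl4 had 0.754 and 0.789, and Tnf and Ccl3 had -0.672 and -0.616. Il1a and Il1b had -0.621 over 12 libraries and 0.593 over 11, so the sign for that pair rested on 1 library. These values describe libraries that share groups and, within a library, depth and cell composition.

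**Figure D4:**
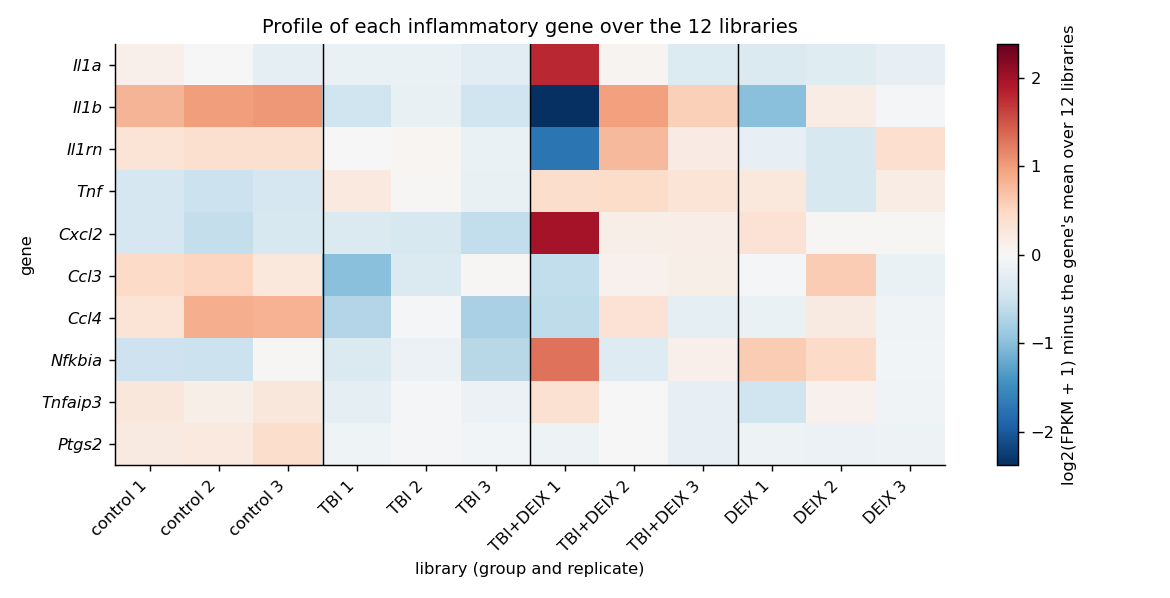
Level of each gene in each library as log2(FPKM + 1) minus the mean of that gene over the 12 libraries, with red above and blue below the mean and vertical lines between groups. TBI+DEIX replicate 1 holds the darkest cells of the map, red for Il1a, Cxcl2 and Nfkbia and blue for Il1b and Il1rn.

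Ptgs2 encodes cyclooxygenase-2, the inducible enzyme of prostaglandin synthesis. Control libraries held 0.345, 0.353 and 0.537 FPKM, which was an estimated 75.9, 57.5 and 124 fragments. TBI libraries held 0.0825, 0.139 and 0.107 FPKM, DEIX libraries 0.0680, 0.0495 and 0.0662 FPKM, and TBI+DEIX libraries 0.0582, 0.158 and 0.0108 FPKM. All 9 other libraries lay below all control libraries, at 1.26 to 33.0 estimated fragments. Marker sums of 4 cell types had the same order, with all 9 below all control libraries: the B lineage at 741 to 904 FPKM in control and at most 558 elsewhere, dendritic cells at 127 to 149 and at most 78.3, basophils and mast cells at 397 to 456 and at most 392, and megakaryocytes and platelets at 108 to 166 and at most 101. Their part in the result was not tested. With no filter on low values, where 3.9% of 17304 genes were called for TBI against control, Ptgs2 fell by 0.34 in TBI (SE 0.06, adjusted p = 0.0109). It also fell by 0.41 with DEIX (adjusted p = 0.00726) and by 0.39 in TBI+DEIX (adjusted p = 0.00169), where 4.65% and 21% of genes were called. As ratios of means these falls were 3.75-fold, 6.72-fold and 5.45-fold. Each kept its call in the 11 further settings run, all chosen after seeing the data, with an adjusted p of at most 0.0473. The difference of TBI+DEIX from TBI was -0.05 (adjusted p = 0.694), where 3.91% of genes were called.

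Other genes of the pathway were taken from 10 lists, with 135 genes tested. The lists were chosen with earlier results of these data known, so the shares below are a description. After TBI 2 were called higher and 8 lower (7.41%), where 0.891% of all tested genes were called higher and 3.1% lower. From TBI to TBI+DEIX 22 were called higher and 0 lower (16.3%), where 4.69% of all tested genes were called higher and 3.41% lower. The 22 became 62 without TBI+DEIX replicate 1 (25.8% of all genes), 1 without TBI replicate 3 (0.0455%), 5 without TBI+DEIX replicate 3 (0.464%), 8 without TBI replicate 2 (3.14%) and 0 with the TBI and TBI+DEIX libraries alone, where no gene of the table was called. Each of the 22 calls was lost in 1 (Socs3) to 9 (Relb and Csf1) of the 14 or 15 alternatives run for it, and 10 of the 22 in 5 or more. With DEIX against control 15 were called higher and 5 lower (14.8%), where 4.52% and 2.72% of all tested genes were, and 4 to 24 were called when a library was left out, where 1.33% to 8.53% of all genes were. The monocyte marker sum was 2919 to 3268 with DEIX and 2318 to 2352 in control, without overlap. That of the macrophage markers was lower with DEIX, 154 to 173 against 226 to 265. The part of both sums in these calls was not tested. The median change of the 135 genes from TBI to TBI+DEIX was 0.29, and that of all tested genes was 0.00.

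Of 19 other inhibitors and feedback genes, none passed the test after TBI, although the TBI and control libraries did not overlap for some: Il10ra stood at 20.8 to 23.5 FPKM in control and 13.7 to 15.5 FPKM in TBI (adjusted p = 0.185), Zfp36l1 at 21.2 to 22.2 and 14.0 to 16.8 FPKM (0.0787), and Irak3 at 18.0 to 19.1 and 22.2 to 26.2 FPKM (0.0535). These 3 were picked after their values were seen. Of all tested genes, 16.3% were lower and 22% higher in TBI than in control without overlap. From TBI to TBI+DEIX 5 rose, Socs3, Bcl3, Nfkbiz, Zfp36l1 and Cyld. Socs3, which blocks cytokine receptor signalling, stood at 5.67, 4.75 and 4.02 FPKM in TBI and 28.8, 18.1 and 19.8 FPKM in TBI+DEIX, a 4.62-fold difference (1.98, SE 0.22, adjusted p = 0.00411). It was also 2.89-fold higher with DEIX than in control (adjusted p = 0.00753). Bcl3 and Nfkbiz, atypical IκB proteins that act in the nucleus, were 2.37-fold and 1.46-fold higher in TBI+DEIX than in TBI (adjusted p = 0.0159 and 0.0217). With DEIX against control Bcl3 was called at an adjusted p of 0.0287 and lost the call in 6 of 15 alternatives, and Nfkbiz at 0.0481 and lost it in 11 of 15, among them each library left out. Nfkbia thus had a change of the same sign as theirs from TBI to TBI+DEIX without passing. The summed FPKM of the immediate early genes, none of which was at 0 throughout, was 237 to 278 in TBI, 393 to 427 in TBI+DEIX, 263 to 359 in control and 326 to 390 with DEIX, and its part in these changes was not tested. That of the maturing neutrophil markers was 52537 and 50361 in TBI+DEIX replicates 2 and 3, above all other libraries, and 20860 in replicate 1, the lowest of the 12, in which Socs3 was highest. None of its 10 genes was at 0 in any library.

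Of 10 IL-1 family genes, Il1r2 and Il18rap were called higher from TBI to TBI+DEIX, Il18rap with a call lost in 7 of 15 alternatives. Il1r2 stood at 33.0 to 47.8 FPKM in TBI and at 349, 118 and 118 FPKM in TBI+DEIX, a 5.13-fold difference (adjusted p = 0.0146) that was 3.11-fold, and still called, without TBI+DEIX replicate 1. That call was lost without TBI replicate 3 (adjusted p = 0.0849) and with the compared groups alone (adjusted p = 0.144). Il1r2 was 3.49-fold higher with DEIX than in control (adjusted p = 0.0168), a call lost in 5 of 15 alternatives. Among 16 TNF family genes, Birc3, Cflar and Ripk1, which act between the TNF receptor and NF-kB or cell death, were called higher from TBI to TBI+DEIX, Birc3 by 1.64-fold (adjusted p = 0.0151). Cflar and Ripk1 each lost the call in 6 of 15 alternatives, and Birc3 in 3. Of 16 NF-kB subunits and kinases, Relb was called lower after TBI (adjusted p = 0.0469) and higher from TBI to TBI+DEIX by 1.46-fold (adjusted p = 0.036). It lost the first call in 12 of 15 alternatives, among them each library left out, and the second in 9 of 15. Of 20 other NF-kB targets all had a positive difference from TBI to TBI+DEIX, and 5 passed: Il4ra, Pim1, Clec4e, Icam1 and Ier3. Their median was 0.49, beside 0.00 for all tested genes.

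After TBI the called genes of other lists were Cd40 among 16 TNF family genes (3.80-fold lower, adjusted p = 0.00456), Cd83 among 20 other NF-kB targets (4.52-fold lower, 0.0074), Ccr7 among 10 chemokine receptors (6.92-fold lower, 0.000231), and Il12a (3.28-fold lower, 0.0074) and Csf1 (2.09-fold lower, 0.00725) among 8 other cytokines. Each of these 5 falls kept its call in all 14 alternatives run. Csf1 was called higher in TBI+DEIX than in TBI by 1.66-fold (adjusted p = 0.036), a call lost in 9 of 14 alternatives. The summed FPKM of the dendritic cell markers, 6 of 7 of which reached 1 FPKM in 3 libraries and none of which was at 0 throughout, was lower in TBI without overlap beside them, as was that of the 9 B lineage markers (161 to 508 against 741 to 904), and the part of both in these falls was not tested. Among 18 prostaglandin and leukotriene genes, Ptgs1, the constitutive cyclooxygenase, and Ptges, a prostaglandin E synthase, rose after TBI by 1.44-fold and 1.65-fold (adjusted p = 0.0372 and 0.0241). Ptgs1 lost that call in 10 of 15 alternatives, among them each library left out, and Ptges in 6 of 14. Alox5 and Alox5ap, which start leukotriene synthesis, rose from TBI to TBI+DEIX by 1.56-fold and 1.97-fold (adjusted p = 0.0259 and 0.0211). Ccr1, a receptor for Ccl3 and itself one of the monocyte markers, rose from TBI to TBI+DEIX by 2.31-fold (adjusted p = 0.0108), whereas Ccl3 itself did not pass. The call of Ccr1 was lost in 2 of 15 alternatives. Of 8 other chemokines, Pf4 and Ppbp, which platelets carry, fell after TBI by 5.53-fold and 5.80-fold (adjusted p = 0.00559 and 0.00921), and both kept the call in all 15 alternatives. Cxcl16 was called higher from TBI to TBI+DEIX by 2.69-fold (adjusted p = 0.0129). The summed FPKM of 7 megakaryocyte and platelet markers, both of these among them, was 108 to 166 in control and 23.5 to 44.6 in TBI, and its part in the falls of Pf4 and Ppbp was not tested. Of 10 inflammasome genes, which serve the processing of the IL-1β precursor, none passed after TBI and Casp4 rose from TBI to TBI+DEIX by 2.08-fold (adjusted p = 0.0199).

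**Figure D5:**
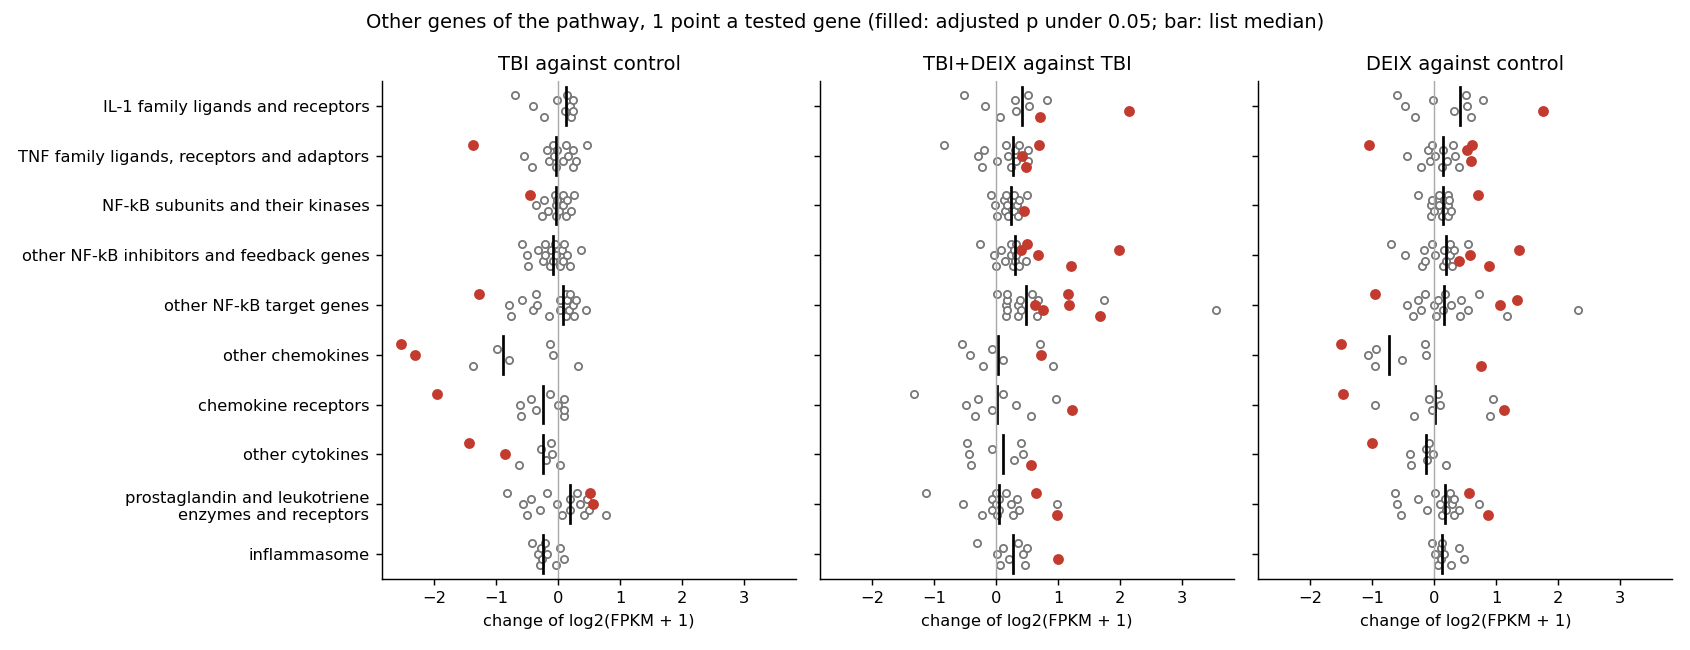
Change of 135 other genes of the pathway in 3 comparisons, 1 point a gene, in 10 lists, as the difference of log2(FPKM + 1) between group means. Filled points have an adjusted p under 0.05 and vertical bars are list medians. From TBI to TBI+DEIX the 22 filled points all lie to the right of 0.

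The genes whose profile was most like that of a member were ranked by Pearson correlation of log2(FPKM + 1) over the 12 libraries, among 8334 genes with a mean of at least 5 FPKM. For Il1b these were Aif1 (0.966), Hist1h2bc (0.957), Vnn3 (0.949), Epsti1 (0.948) and Ddx60 (0.940), which had 0.882 to 0.922 over the 11 libraries without TBI+DEIX replicate 1. For Ccl3 they were Ppcdc (0.878), Gimap4 (0.865), Mcpt8 (0.865), Csk (0.855) and Cpa3 (0.852), of which Mcpt8 and Cpa3 are among the basophil and mast cell markers. For Nfkbia they were Galt (0.950), Gorasp2 (0.946), Fez2 (0.944), Spata13 (0.942) and Il15ra (0.931), with 0.845 to 0.915 over 11 libraries. The libraries share groups and depth, and the values are a description.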

How the data were processed

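The deposited table gives FPKM per gene and library, computed by the authors. The submitters' processing notes name STAR 2.6, Cufflinks 2.2.1 and mm10, with no role or order. All 21853 identifiers matched GENCODE vM21, which gave symbols and mm10 coordinates. FPKM holds no counts, so no count test was used. Depth was estimated from the smallest steps of low values of single-transcript genes, and estimated fragments are FPKM times length times that depth.

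Values were tested as log2(FPKM + 1) with limma 3.58.1 in R 4.3.3 (lmFit, eBayes with trend), in 1 model of 4 group means over 12 libraries, with Benjamini-Hochberg adjustment over all 10994 genes with at least 1 FPKM in 3 libraries, tested on simulated data. Ratios were tested by exact permutation of libraries. Alternatives were pseudocounts of 0.1 and 0.5, no filter, a mean of at least 5 FPKM, TPM scaling, quantile normalization, a replicate block, array weights (gene-by-gene method), the compared groups alone, and leaving out each library. TPM totals and array weights left out S100a8, S100a9 and Ngp, which are listed at 0 in some libraries. The members and lists were chosen with earlier results of these data known. All 10 members are named, and of the lists some of the called genes. Promoters come from RefSeq (GRCm38.p6).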

Additional observations from a re-analysis of the deposited data

How the results depend on the processing

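Over 109 pairs of gene and comparison and 1599 alternative values, 1312 kept their direction and their side of the threshold, 233 lost a call, 31 gained one and 23 changed sign, in 9 pairs. Of the 10 inflammatory genes, the count called among those a setting tests was, for TBI against control (1), 2 with no filter (Ccl4 and Ptgs2), 0 with a mean of at least 5 FPKM (which leaves Ccl4 untested), 5 with array weights, 5 with the compared groups alone and 0 to 1 without a library. For TBI+DEIX against TBI (0) it was 2 with array weights and 0 to 1 without a library. For DEIX against control (0) it was 1 with no filter (Ptgs2), 1 with the replicate block (Ccl4), 6 with array weights, 2 with the compared groups alone and 0 to 1 without a library. For TBI+DEIX against control (2) it was 2 with no filter (Tnf and Ptgs2, while Ccl4 lost its call), 1 with a mean of at least 5 FPKM, 1 with quantile normalization, 1 with the compared groups alone and 1 to 3 without a library. A mean of at least 5 FPKM called 1.61% of all genes for TBI and 30.2% for TBI+DEIX against control. Quantile normalization called 28.8% for TBI+DEIX against control, and the replicate block 5.82% for DEIX against control. For the interaction (0) the count of the 10 genes was 1 with array weights and 0 to 1 without a library. In the order of these 5 comparisons, array weights called 38.4%, 40.8%, 41%, 56.3% and 4.84% of all tested genes. No filter called 3.9%, 3.91%, 4.65%, 21% and 0.214%. The compared groups alone called 12.9%, 0%, 18.7% and 19.8%, with no such fit for the interaction. Leaving out a library called 1.39% to 2.36%, 0.0455% to 25.8%, 1.33% to 8.53%, 18.2% to 38.5% and 0.0364% to 3.01%.

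Pathway genes called for TBI against control (10) were 2 with a mean of at least 5 FPKM, 69 with array weights, 33 with the compared groups alone and 7 to 8 without a library. For TBI+DEIX against TBI (22) they were 75 with array weights, 0 with the compared groups alone and 1 to 62 without a library. For DEIX against control (20) they were 73 with array weights, 41 with the compared groups alone and 4 to 24 without a library. For TBI+DEIX against control (50) they were 87 with array weights, and for the interaction (0) they were 1 with no filter, 1 with TPM scaling, 1 with quantile normalization, 23 with array weights and 0 to 17 without a library. Shares of all genes called in these settings are those given above. For the interaction they were also 0.255% with TPM scaling and 0.346% with quantile normalization. Array weights ran from 0.0709 for TBI+DEIX replicate 1 upwards, with control replicate 2 weighted highest. Over all genes the called counts 439, 891, 796, 3299 and 22, in the same order, ranged from 134 to 4218, 0 to 4489, 146 to 4507, 2004 to 6188 and 4 to 532. The cause of these shifts was not tested.

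Signs changed as follows. Il1b from TBI to TBI+DEIX was -0.031 with TPM scaling and -0.53 to 1.15 without a library. With array weights, Il1rn was 0.47 from TBI to TBI+DEIX and 0.10 from control to TBI+DEIX, and Nfkbia was 0.24 from control to TBI and -0.60 in the interaction. Without a library, Il1rn was -0.74 to 0.52 from TBI to TBI+DEIX, -1.14 to 0.12 from control to TBI+DEIX and -0.32 to 0.94 in the interaction. Likewise the interaction of Tnf was -0.29 to 0.020, Nfkbia was -0.17 to 0.12 from control to TBI and -0.37 to 0.42 in the interaction, and with no filter Il1a was -0.10 to 0.96 from control to TBI+DEIX and Cxcl2 -0.048 to 0.082 from control to TBI. None of these passed in the fit as reported. Replicate numbers did not pair the libraries: deviations of same-numbered libraries had correlations of -0.397 to 0.258 in 18 pairs, 3 of them over 0.1. Beyond the change named above, the replicate block altered no count of tested members.

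Il1a, Cxcl2, Ptgs2 and Ccl4 had fewer than 20 estimated fragments in at least 1 library, which limits their precision.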
